A study of Mus musculus with 6 samples.

Results

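The 77 genes described here carry the symbols Mrpl or Mrps followed by a number and, in 3 cases, a letter. They were chosen by symbol alone from the 23282 rows of the deposited tables, and 48 of them are named for the large subunit (Mrpl) and 29 for the small subunit (Mrps) of the mitochondrial ribosome. The samples were brown adipose tissue (BAT) of 3 wild-type (WT) and 3 Letmd1 KO mice, all male, of strain C57BL/6N and 5 weeks of age. The KO mice carry a knockout-first allele, in which a lacZ and neomycin cassette interrupts Letmd1, a gene for a protein of the mitochondrial matrix. The line came from 1 embryonic stem cell clone, and the allele is not limited to BAT, so every tissue of these mice lacks the gene. The labels name no treatment, and no sample is described as a pool of animals. QuantSeq libraries, made from the 3′ ends of mRNAs, were sequenced. A count here is a number of 3′ tags and does not scale with gene length, so levels of different genes can be set side by side.

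Mitochondria keep their own ribosome, which translates only the few mRNAs of mitochondrial DNA, all of them for subunits of the respiratory chain and ATP synthase. Its RNAs come from mitochondrial DNA, but all of its proteins are encoded in the nucleus, translated in the cytosol and imported. The large subunit joins amino acids and holds the exit tunnel, a central protuberance and a stalk that recruits translation factors, and the small subunit holds the mRNA and its decoding site. Many of the proteins descend from proteins of bacterial ribosomes, and others are found only in mitochondria. Brown adipocytes are rich in mitochondria and burn fuel for heat through uncoupling protein 1 (Ucp1).

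The libraries held between 6669577 and 14574273 counts. Counts were scaled with edgeR's TMM factors and are given as CPM, the usual unit of counts relative to library size. Counts of Letmd1 matched the labels, with 5658, 6490 and 5266 in WT and 0, 0 and 1 in KO mice. The adipocyte markers (Ucp1, Cidea, Dio2, Elovl3, Adipoq, Plin1, Fabp4 and Pparg) were present in every mouse. Their summed level was 39544 to 44933 CPM in WT BAT and 12149 to 15887 CPM in Letmd1 KO BAT, and 7 of the 8 were lower. Most of this sum was Fabp4, with a mean of 27986 CPM in WT and 10449 CPM in KO BAT. Ucp1 was at 6.04% of its WT level, and Pparg, at 88.5%, missed the threshold. All 9 macrophage markers were higher (summed level 166 to 231 CPM against 1336 to 3203 CPM, highest in KO mouse 2), and 2 of 6 endothelial markers were lower (445 to 576 CPM against 307 to 389 CPM). Skeletal muscle markers summed to under 3 CPM in WT mice 1 and 3, 320 CPM in WT mouse 2 and 249 to 978 CPM in the KO mice, and 2 of 10 were higher. Of these muscle markers 7 were at 0 in WT mouse 1 and 5 in WT mouse 3. The counts of lower and higher markers, from the test described below, stand beside 22.3% lower and 23.7% higher over all genes tested. Fewer cells of a type and less RNA per cell cannot be told apart in these bulk samples, and the part of the changed cell markers in the results on ribosome protein genes was not tested.

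Genes of the mitochondrial ribosome were lower as a group in Letmd1 KO BAT, in both subunits. In edgeR's quasi-likelihood test over 12995 genes, at an adjusted p (Benjamini-Hochberg) under 0.05, 67 of the 77 genes were lower, against 22.3% of all genes tested. Only Mrps6 and Mrpl19 were higher in this test, against 23.7% of all genes tested, and 8 genes missed the threshold. All 77 genes passed the filter on low counts, and the smallest count of any of them in any mouse was 38. The median log2 fold change was -0.66, or 63.2% of the WT level, beside 0.03 over all genes tested. The middle of the distribution was narrow, with quartiles of -0.82 and -0.46, while single genes ranged from -1.92 to 0.42. In 68 of the 77 genes, every KO mouse lay below every WT mouse, a pattern seen in 27.2% of all genes tested. Every KO mouse lay above every WT mouse in 2 genes, against 30.1% of all genes tested. The fold changes depend on the scaling, because the TMM factors were 0.852 to 0.887 in WT and 1.13 to 1.17 in KO mice. Scaling by library size alone moved the median of all genes to 0.45 and that of the ribosome genes to -0.24, and 32 genes were then lower and 6 higher, against 10.6 and 45.3% of all genes tested. Set against the median of all genes, that of the 77 genes was -0.69 under both scalings. A change of scaling moves all genes by nearly the same amount, so this difference could hardly change. With quantile normalization and limma, which does not move all genes alike, it was -0.48. Without the mice with the most muscle markers, WT mouse 2 and KO mouse 3, 51 genes were lower and 0 higher, against 14.8 and 15.3% of all genes tested, with a median of -0.71.

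**Figure D1:**
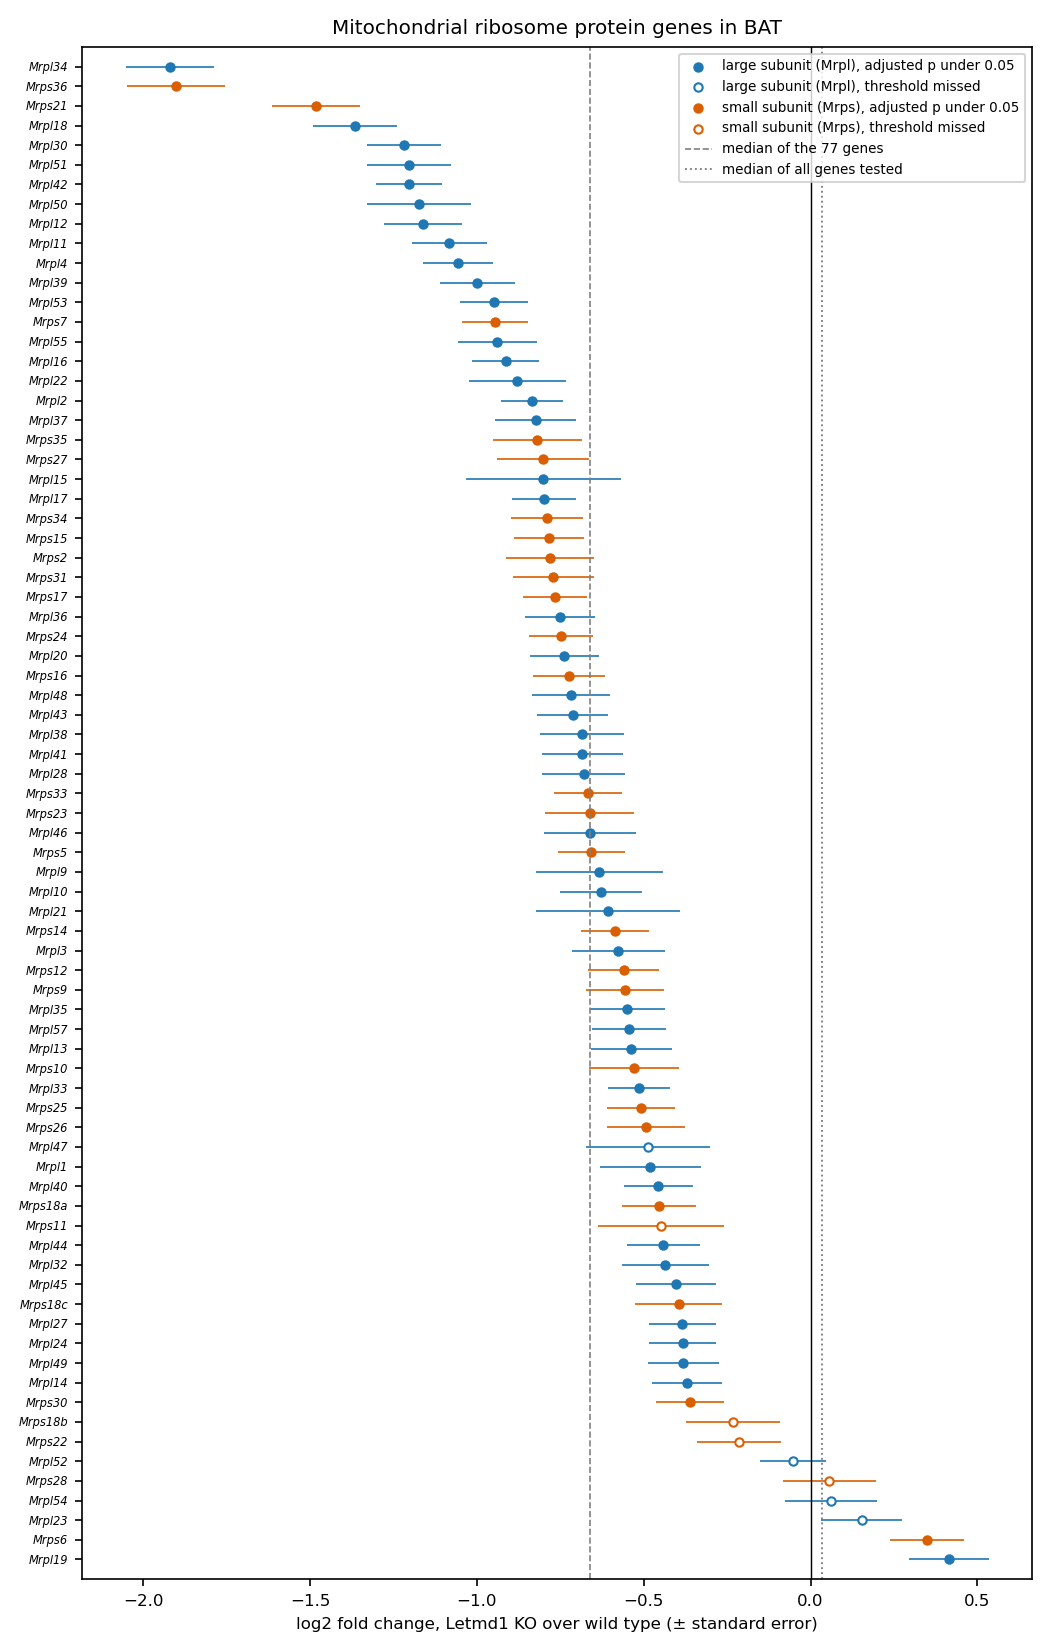
Log2 fold change of each of the 77 mitochondrial ribosome protein genes (rows) in Letmd1 KO over WT BAT with its standard error from edgeR, in blue for the 48 Mrpl and in orange for the 29 Mrps genes. Filled points passed an adjusted p of 0.05, dashed and dotted lines mark the median of the 77 genes (-0.66) and of all genes tested (0.03), and under scaling by library size alone both medians move up, to -0.24 and 0.45.

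Large and small subunits were compared next, with counts that stand beside 22.3% lower and 23.7% higher over all genes tested. Of the Mrpl genes, 43 of 48 were lower and 1 was higher, with a median log2 fold change of -0.68. Of the Mrps genes, 24 of 29 were lower and 1 was higher, with a median of -0.66. The difference between these medians was -0.03, where the same difference taken in each mouse varied with an SD of 0.06 (log2 CPM) between mice of a genotype. Single genes varied more widely, with an SD of 0.40 in the large and 0.41 in the small subunit. With the mean log2 CPM over the genes of each subunit, Mrpl minus Mrps was 0.129, 0.088 and 0.118 in the WT mice. In the KO mice it was 0.067, 0.041 and 0.040. The genotypes did not overlap in this measure, in which each gene weighs the same, and its mean moved by -0.062, with no test. Some names do not follow the place of the protein: Mrps30 and Mrps18a sit in the large subunit, and Mrps36 belongs to the 2-oxoglutarate dehydrogenase complex, an enzyme of the citric acid cycle. Sorted by place, 45 of 50 large-subunit and 21 of 26 small-subunit genes were lower, with medians of -0.67 and -0.66.

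In summed level the subunits did not fall by the same share. The Mrpl genes summed to 6731, 6806 and 7081 CPM in the WT mice and to 3773, 3558 and 3895 CPM in the KO mice, a mean of 54.4% of WT. The Mrps genes summed to 3084, 3219 and 3279 CPM in WT and to 1970, 1954 and 2094 CPM in KO mice, 62.8% of WT. No KO mouse came near the WT values of either subunit. The ratio of Mrpl to Mrps counts, which no scaling can move, was 2.18, 2.11 and 2.16 in WT and 1.92, 1.82 and 1.86 in KO mice. The genotypes did not overlap in this ratio, and its mean fell from 2.15 ± 0.0348 to 1.87 ± 0.0473 (SD, n = 3 each), with no test, since the members were chosen with earlier results known. The abundant genes weigh most in such sums. Without Mrpl34, the ratio was 1.91, 1.85 and 1.86 in WT and 1.80, 1.71 and 1.73 in KO mice, a mean of 93.3% of WT. Without both Mrpl34 and Mrps36, its mean was 1.96 in WT and 1.78 in KO mice, 90.9% of WT. Sorted by place, which leaves out Mrps36 but keeps Mrpl34, the mean ratio was 2.43 in WT and 2.09 in KO mice. The genotypes did not overlap in any of these versions. Among the 69 genes with a mean under 200 CPM over all 6 mice, the ratio was 1.39, 1.36 and 1.42 in WT mice. In KO mice it was 1.41, 1.39 and 1.35, and the genotypes overlapped. This limit was chosen after the values were seen. The 8 genes left out are 7 Mrpl genes and Mrps21, and 7 of these 8 are among the genes that fell further than the sum, so that leaving them out narrows the difference in part by construction.

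**Figure D2:**
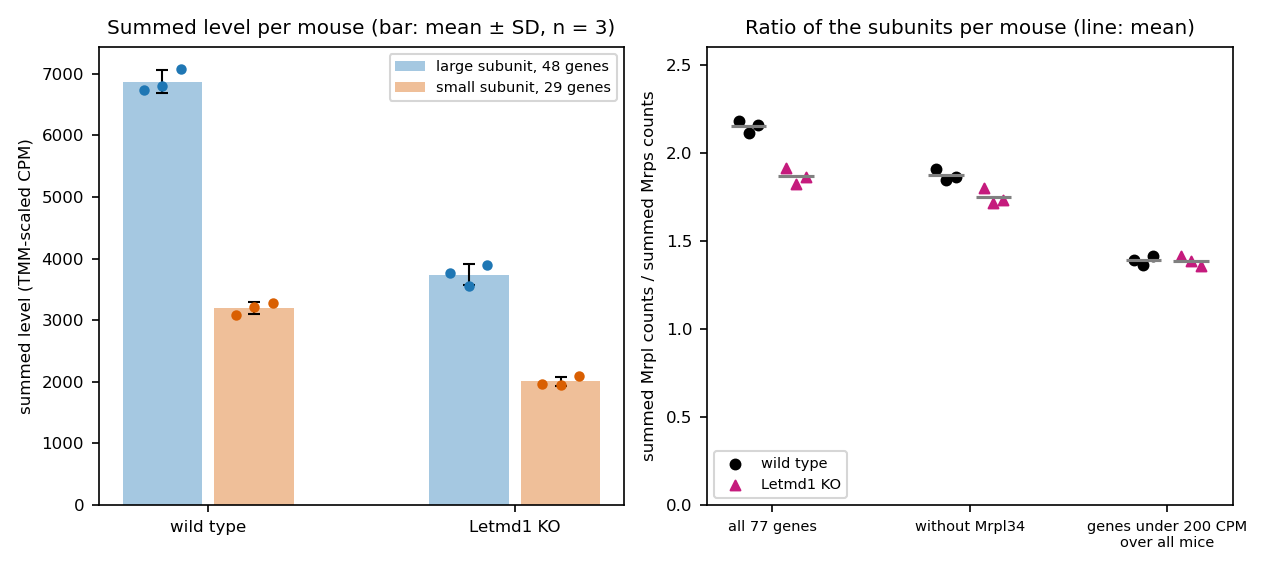
Left, summed TMM-scaled CPM of the Mrpl and Mrps genes in each mouse (points) with mean and SD (bars, n = 3). The fall depends on the scaling: all 77 genes together were at 57.1% of WT in these sums and at 76.4% as a share of all counts. Right, ratio of summed Mrpl to summed Mrps counts per mouse for all 77 genes, without Mrpl34 and for genes with a mean under 200 CPM over all mice, where the mean was 99.7% of WT in Letmd1 KO mice.

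Together the 77 genes took up 0.840, 0.889 and 0.883% of all counts in the WT mice and 0.670, 0.625 and 0.70% in the KO mice, without overlap. The more abundant genes had the more negative fold changes. In the 26 genes of lowest mean level the median log2 fold change was -0.49, in the 25 of middle level -0.69 and in the 26 of highest level -0.81, and 20, 23 and 24 of them were lower. Across the 77 genes, Spearman's rho between mean level and log2 fold change was -0.40 and Pearson's r was -0.38, given as a description, since the genes share the 6 libraries and the level enters both measures. The medians of both ancestry classes were close. Counts by level and by class stand beside 22.3% lower and 23.7% higher over all genes tested. Of 47 genes with a homolog in bacterial ribosomes, 41 were lower and 2 were higher, with a median of -0.63. Of 29 genes found only in mitochondria, 25 were lower and none was higher (0 in edgeR, also at an unadjusted p under 0.05, and 0 in DESeq2), with a median of -0.67. Scaling by library size alone gave 11 of the latter lower and 3 higher, against 10.6 and 45.3% of all genes tested. Mrps28, for which a distant bacterial relative has been proposed, was counted as found only in mitochondria.

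**Figure D3:**
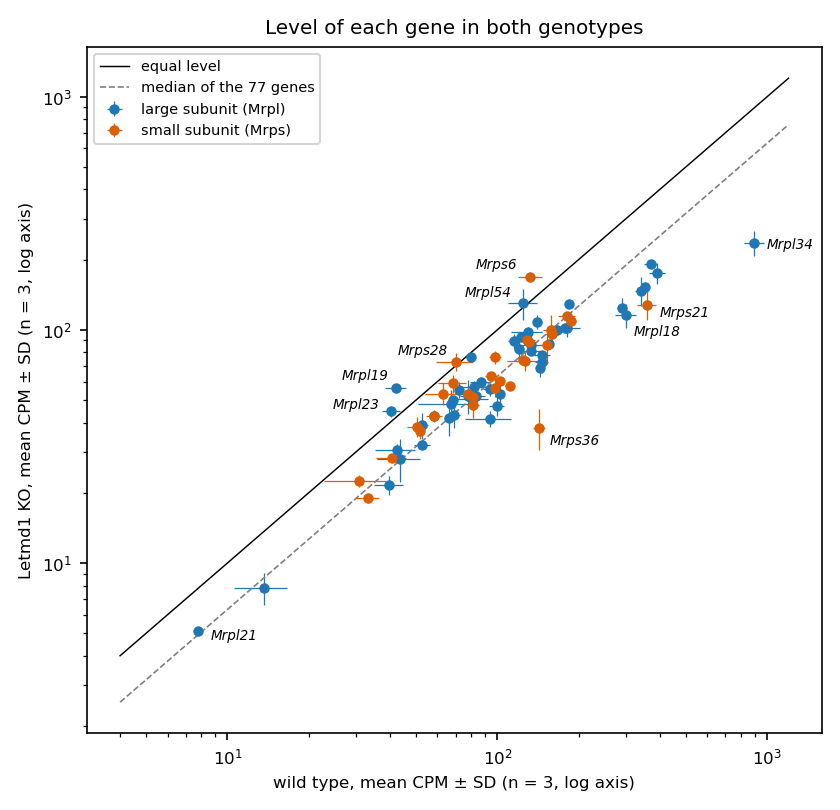
Mean level of each gene in WT (x axis) and Letmd1 KO BAT (y axis), in TMM-scaled CPM on log axes with SD (n = 3). Points on the solid line have equal levels, the dashed line is the median change of the 77 genes, and Mrpl34, at 894 CPM in WT, lies farthest below it together with Mrps36, while Mrps6 and Mrpl19 lie above the solid line.

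The strongest falls were in Mrpl34 and Mrps36. Mrpl34 encodes a small protein of the large subunit with a bacterial homolog and was the most abundant gene of the set in WT BAT. It lies at chr8:71464959-71465747 on the plus strand (GRCm38). Its level was 841, 860 and 981 CPM in the WT mice and 229, 211 and 268 CPM in the KO mice. The genotypes lay far apart, and the log2 fold change was -1.92 ± 0.13 (SE, adjusted p = 1.1e-05 in edgeR). As a share of the counts of all 77 genes, Mrpl34 went from 8.56, 8.57 and 9.47% in WT to 4.0, 3.83 and 4.47% in KO mice. Mrps36, the subunit of 2-oxoglutarate dehydrogenase named above, lies at chr13:100735955-100744659 on the minus strand. It measured 138, 151 and 139 CPM in WT and 34.9, 32.4 and 46.6 CPM in KO mice, with a log2 fold change of -1.90 ± 0.15 (adjusted p = 1.8e-05 in edgeR). This gene has pseudogenes in the annotation, which holds pseudogenes named for 3 genes of the set. The authors counted reads with multiple alignments, so part of the count of Mrps36 may come from such copies.

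Mrps21, a small-subunit protein with a bacterial homolog (chr3:95862634-95871519, minus strand), fell from 335, 348 and 392 CPM to 111, 147 and 127 CPM. Its log2 fold change of -1.48 ± 0.13 (adjusted p = 3.3e-05 in edgeR) was followed among small-subunit proteins by Mrps7, with -0.95. Mrpl18, part of the central protuberance (chr17:12911349-12916345, minus strand), went from 315, 312 and 268 CPM in WT to 124, 99.9 and 123 CPM in KO mice, a log2 fold change of -1.37 ± 0.13. The next 4 were all of the large subunit: Mrpl30 (-1.22), which has a bacterial homolog, and Mrpl51 (-1.20), Mrpl42 (-1.20) and Mrpl50 (-1.17), which are found only in mitochondria. Their adjusted p in edgeR was between 2.3e-05 and 3.1e-04. The genotypes did not overlap in any of these 8 genes, and each kept its call in all 14 alternative fits, which are listed with the processing.

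Exceptions to the fall were found in both subunits. Mrpl19, a large-subunit protein with a bacterial homolog (chr6:81957851-81965958, minus strand), was at 37.9, 45.5 and 43.0 CPM in WT and at 59.1, 54.9 and 54.7 CPM in KO mice. All KO mice were above all WT mice, and the log2 fold change was 0.42 ± 0.12 (adjusted p = 0.018 in edgeR). Mrps6, a small-subunit protein with a bacterial homolog (chr16:92058270-92112227, plus strand), was at 141, 139 and 117 CPM in WT and at 171, 160 and 175 CPM in KO mice, again without overlap. Its log2 fold change was 0.35 ± 0.11 (adjusted p = 0.028 in edgeR). Both calls were close to the threshold. Mrpl19 lost its call without WT mouse 1 or KO mouse 1 (adjusted p = 0.069 and 0.067 in edgeR), and Mrps6 without WT mouse 2, WT mouse 3, KO mouse 1 or KO mouse 3 (adjusted p from 0.068 to 0.098). Both values stayed above 0 in each of the 14 alternative fits. The last 500 bases of Mrpl19 overlap an exon of Gcfc2 on the opposite strand. Whether the counting used strand is not given in the sources used here, so reads of both genes cannot be told apart, and Gcfc2 was at 7.25 ± 2.83 CPM in WT and 11.1 ± 0.503 CPM in KO mice (SD, n = 3).

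Mrpl54, Mrps28, Mrpl23 and Mrpl52 stayed within or near the WT range while most of the set fell. Mrpl54, which lies near the stalk, was at 125, 110 and 140 CPM in WT and at 151, 113 and 126 CPM in KO mice, with a log2 fold change of 0.06 ± 0.14. Mrps28 was at 57.8, 74.1 and 78.9 CPM in WT and at 66.3, 73.9 and 78.8 CPM in KO mice (0.06 ± 0.14). The genotypes overlapped in each of these genes. Mrpl23, a protein at the exit tunnel, was at 37.9, 39.5 and 43.8 CPM in WT and at 44.7, 42.4 and 47.4 CPM in KO mice (0.15 ± 0.12). Mrpl52 was at 79.8, 77.1 and 82.3 CPM in WT and at 74.0, 80.2 and 76.2 CPM in KO mice (-0.05 ± 0.10). For none of the 4 did edgeR's adjusted p pass the threshold (between 0.33 and 0.77), and the sign of Mrpl54, Mrps28 and Mrpl52 turned in 3, 2 and 2 of the 14 alternative fits. With scaling by library size alone all 4 were higher in edgeR (0.48, 0.48, 0.57 and 0.37 for Mrpl54, Mrps28, Mrpl23 and Mrpl52, adjusted p from 0.0037 to 0.018). They and Mrps6 and Mrpl19 are the 6 genes higher under that scaling, against 45.3% of all genes tested. The other genes without a call were Mrps22 (-0.21), Mrps18b (-0.23), Mrps11 (-0.45) and Mrpl47 (-0.49). Their values lay below 0, but with scaling by library size alone Mrps22 and Mrps18b lay above it.

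**Figure D4:**
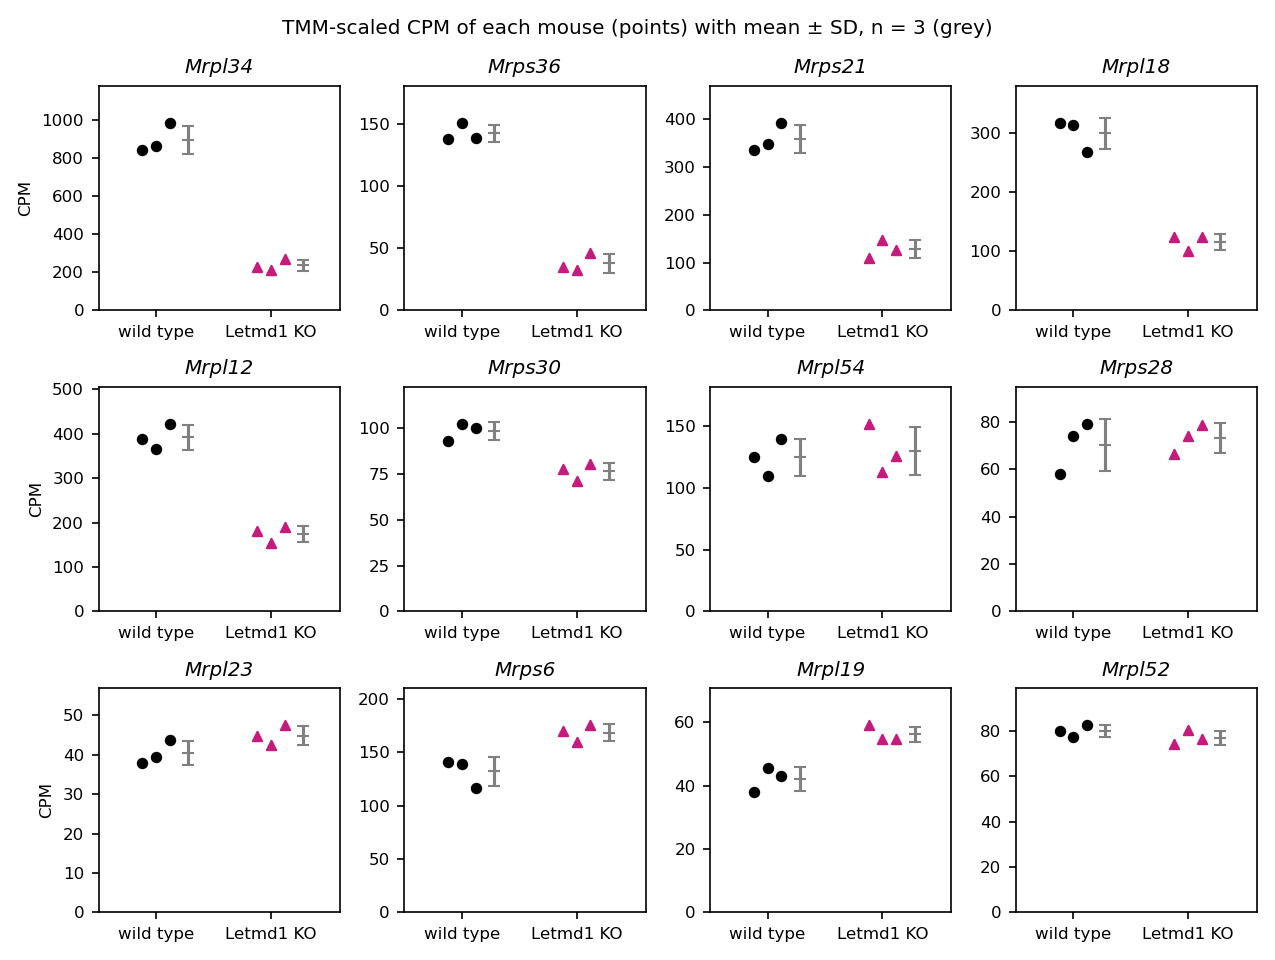
TMM-scaled CPM of each mouse (black circles WT, pink triangles Letmd1 KO) for 12 genes, with mean and SD in grey (n = 3) and every axis starting at 0. Mrpl34, Mrps36, Mrps21, Mrpl18 and Mrpl12 fell without overlap, Mrpl54, Mrps28, Mrpl23 and Mrpl52 overlapped, and all KO mice lay above all WT mice for Mrps6 and Mrpl19.

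The names of the set also hold paralogs and misnomers. Mrps18a, b and c are 3 copies of one bacterial small-subunit protein, of which the first now sits in the large subunit. Mrps18a was at 55.1, 57.2 and 63.0 CPM in WT and at 43.2, 43.2 and 41.5 CPM in KO mice (-0.45 ± 0.11, adjusted p = 0.0089 in edgeR). Mrps18c was at 47.8, 55.5 and 48.2 CPM in WT and at 41.5, 34.1 and 39.5 CPM in KO mice (-0.40 ± 0.13, adjusted p = 0.032 in edgeR). Mrps18b, with -0.23 ± 0.14, missed the threshold, and a difference between the copies was not tested. Mrps30, also of the large subunit, was at 92.7 to 102 CPM in WT and at 77.6, 71.1 and 80.5 CPM in KO mice (-0.36 ± 0.10, adjusted p = 0.018 in edgeR). Scaling by library size alone ended all 3 calls and moved Mrps18a to -0.03, Mrps18c to 0.02 and Mrps30 to 0.06. The call of Mrps18c was lost in 8 and that of Mrps30 in 5 of the 14 alternative fits, with an adjusted p in edgeR of up to 0.11 and 0.059 when 1 mouse was left out (without WT mouse 2 for both). Mrps18c also lost it without KO mouse 2 or KO mouse 3, and Mrps30 without KO mouse 2.

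To ask which genes left the shift that the set shares, each gene was tested with the library size of a mouse replaced by its summed counts over the 77 genes. A value of 0 then means that a gene moved with the sum. In this edgeR test 9 genes fell further than the sum, against 5.49% of all genes tested, and 22 fell less or rose, against 67.9% of all genes tested, since most genes in the tissue did not fall. The other 46 genes could not be told from the sum. The 9 genes below it were Mrpl34, Mrps36, Mrps21, Mrpl18, Mrpl30, Mrpl51, Mrpl42, Mrpl12 and Mrpl4, that is 7 Mrpl and 2 Mrps genes, with a median WT level of 340 CPM. The 22 genes above it were 13 Mrpl and 9 Mrps genes with a median WT level of 71.2 CPM, and 14 of them had fallen in the first test. Relative to the sum, Mrpl34 stood at -1.11 (adjusted p = 4.0e-05 in edgeR), Mrps36 at -1.10 and Mrps21 at -0.67. On the other side, Mrpl19 stood at 1.22 (adjusted p = 3.4e-05 in edgeR), Mrps6 at 1.15, Mrpl23 at 0.96, Mrpl54 at 0.87 and Mrps28 at 0.87. In share of the counts of the set, Mrps6 went from 1.44, 1.39 and 1.13% in WT to 2.97, 2.90 and 2.93% in KO mice, and Mrpl19 from 0.386, 0.454 and 0.415% to 1.03, 0.995 and 0.913%. These shares do not depend on the scaling. With the geometric mean of the 77 genes in place of their sum, which gives abundant genes less weight, 13 genes lay below and 12 above. Shares over all genes were not computed for this version.

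Parts of the large subunit were looked at by their place, with lists drawn up after values had been seen. The counts by place stand beside 89.6% of all 48 Mrpl genes lower and 22.3% of all genes tested. Of 5 genes for the stalk and its base, 4 were lower. Mrpl12, which forms the stalk that touches the translation factors, went from 388, 366 and 421 CPM to 181, 154 and 189 CPM (-1.16 ± 0.12, adjusted p = 6.6e-05 in edgeR). Mrpl11 and Mrpl10 at the base had -1.08 and -0.63, and Mrpl53 fell from 390, 366 and 352 CPM to 192, 184 and 198 CPM (-0.95 ± 0.10), whereas Mrpl54, given above, missed the threshold. Mrpl12, Mrpl53, Mrps21 and Mrpl42 were, after Mrpl34, the most abundant genes of the set in WT BAT. Of 5 genes around the exit tunnel, where the new protein leaves, 3 were lower, with a median of -0.40. Mrpl22 had -0.88, while Mrpl45, which holds the ribosome at the inner membrane, had -0.40 and Mrpl23 had 0.15. All 7 genes listed for the central protuberance were lower, with a median of -0.69. This list is not complete: Mrpl52 (-0.05) and Ict1 (-0.28), which missed the threshold, are not in it. No difference between these places was tested.

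Promoters were searched for the cores bound by factors known for nuclear genes of mitochondria: the ETS core CCGGAAG (GABP, also called NRF-2), the YY1 core AAGATGG and the NRF1 core GCGCANGCG. Each was counted on either strand, from 250 bases before to 50 after the start in RefSeq (GRCm38.p6), whose table held 68 of the 77 genes. The ETS core was in 25 of the 68 genes (36.8%, against 9.93% of the 27025 genes in the table), the YY1 core in 13 (19.1% against 7.28%) and the NRF1 core in 16 (23.5% against 7.03%). Any of them was in 43 (63.2% against 21.4%). The 27025 genes are not limited to those tested in BAT, so these shares are not matched for expression or base content. Fold changes were close between genes with and without a match, and no difference was tested. The median log2 fold change was -0.66 both with and without the ETS core, -0.56 with and -0.66 without the YY1 core, and -0.59 with and -0.67 without the NRF1 core. Promoters of the 3 genes with the strongest falls and of Mrps6, which was higher, are shown so that both ends of the range of changes can be read. Bases are written 5′ to 3′ on the strand of the gene, and capitals mark the cores on either strand. Mrpl34 (chr8:71464676-71464975, plus strand) has an ETS core that begins 37 bases before the start. Mrps21 (chr3:95871465-95871764, minus strand) has an NRF1 core 90 bases before and an ETS core 18 bases after the start. Mrps36 (chr13:100744610-100744909, minus strand) and Mrps6 (chr16:92058086-92058385, plus strand) hold none of these letters in this window.
Mrpl34: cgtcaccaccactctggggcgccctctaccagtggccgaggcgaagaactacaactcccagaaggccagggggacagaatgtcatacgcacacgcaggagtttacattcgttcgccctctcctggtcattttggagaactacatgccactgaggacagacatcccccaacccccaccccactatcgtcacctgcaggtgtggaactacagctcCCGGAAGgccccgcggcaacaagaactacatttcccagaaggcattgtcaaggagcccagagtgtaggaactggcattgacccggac
Mrps36: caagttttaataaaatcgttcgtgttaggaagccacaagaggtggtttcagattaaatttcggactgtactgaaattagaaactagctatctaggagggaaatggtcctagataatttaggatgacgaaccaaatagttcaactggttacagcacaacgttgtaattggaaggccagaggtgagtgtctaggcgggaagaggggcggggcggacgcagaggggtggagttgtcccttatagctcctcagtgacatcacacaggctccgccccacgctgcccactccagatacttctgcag
Mrps21: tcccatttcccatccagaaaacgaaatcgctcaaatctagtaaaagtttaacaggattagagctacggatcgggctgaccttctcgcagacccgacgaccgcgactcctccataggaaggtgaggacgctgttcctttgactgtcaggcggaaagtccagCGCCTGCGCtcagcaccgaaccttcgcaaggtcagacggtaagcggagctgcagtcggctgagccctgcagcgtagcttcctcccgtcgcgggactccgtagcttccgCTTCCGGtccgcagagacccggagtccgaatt
Mrps6: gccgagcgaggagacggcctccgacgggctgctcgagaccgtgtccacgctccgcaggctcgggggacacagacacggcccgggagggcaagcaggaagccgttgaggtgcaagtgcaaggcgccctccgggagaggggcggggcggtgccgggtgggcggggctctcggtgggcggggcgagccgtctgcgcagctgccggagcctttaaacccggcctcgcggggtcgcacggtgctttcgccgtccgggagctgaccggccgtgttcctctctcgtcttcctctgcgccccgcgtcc

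Of the 5 factors that bind these cores, none was lower (0 in edgeR, also at an unadjusted p under 0.05, and 0 in DESeq2), against 22.3% of all genes tested. In edgeR 2 were higher, against 23.7% of all genes tested. Nrf1 was higher, from 13.4 ± 3.08 to 23.4 ± 2.68 CPM (SD, n = 3, log2 fold change 0.81, adjusted p = 0.0079 in edgeR), and Gabpb2, a subunit of GABP, from 24.5 ± 2.13 to 32.5 ± 1.07 CPM (0.41, adjusted p = 0.029 in edgeR). Gabpa, Gabpb1 and Yy1 missed the threshold, with 0.07, 0.25 and -0.22. The number of higher factors was 4 with scaling by library size alone, against 45.3% of all genes tested, and 1 in DESeq2, against 22.7%. Without the mice with the most muscle markers it was 0 (1 at an unadjusted p under 0.05 in edgeR), against 15.3%. These are levels of mRNA, and the binding of the factors was not measured.

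Other genes of mitochondrial translation were set beside the 77. Of 6 ribosome proteins whose symbols follow another scheme, 5 were lower, against 22.3% of all genes tested, with a median log2 fold change of -0.50. Ptcd3, a protein at the mRNA entry of the small subunit, went from 72.6, 80.5 and 78.1 CPM to 50.4, 42.2 and 46.1 CPM (-0.74), and Chchd1, also of the small subunit, had -0.65. Dap3, a GTP-binding protein of the small subunit, had -0.28 and was lower, while Ict1, a large-subunit protein that releases stalled peptides, had -0.28 and missed the threshold. Translation factors were lower in 9 of 13 cases, against the same 22.3%, with a median of -0.59. Tufm, the elongation factor that brings tRNA to the ribosome, fell from 79.5, 69.4 and 81.1 CPM to 37.8, 33.3 and 36.5 CPM (-1.09 ± 0.12, adjusted p = 9.2e-05 in edgeR). Taco1, an activator of the translation of a cytochrome c oxidase subunit, had -1.38. At the other end, Mrrf, the recycling factor, and Mtfmt, which formylates the initiator tRNA, had -0.09 each and missed the threshold.

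The assembly and rRNA modification factors stood nearer to the median of all genes. Of 25 such genes 6 were lower and 2 were higher, against 22.3 and 23.7% of all genes tested, and their median log2 fold change was -0.14. Rbfa, which acts on the small subunit, went from 48.3, 46.1 and 57.7 CPM in WT to between 22.1 and 27.9 CPM in KO mice (-1.02 ± 0.15), and Nsun4, an rRNA methyltransferase, had -0.86. Ddx28, a helicase of large-subunit assembly, had 0.48 (adjusted p = 0.047 in edgeR), and Mettl15, which methylates the small-subunit rRNA, had 0.70 (adjusted p = 0.037 in edgeR). Assembly factors had low counts, with a median WT level of 23.4 CPM against 99.5 CPM for the 77 genes, so their fold changes have larger errors. With scaling by library size alone the medians of the assembly factors, the translation factors and the other ribosome proteins were 0.28, -0.16 and -0.09, and 2, 4 and 0 of their genes were lower (1 of the 6 other ribosome proteins at an unadjusted p under 0.05 in edgeR, 4 at an adjusted p under 0.05 in DESeq2 with its own scaling). Of all genes tested, 10.6% were lower with scaling by library size alone and 22.4% in DESeq2. Without the mice with the most muscle markers 3, 6 and 4 were lower, against 14.8% of all genes tested. The number of higher assembly factors was 7 with scaling by library size alone, against 45.3% of all genes tested. It was 1 with RLE scaling, in DESeq2 or without those mice, against 23.3, 22.7 and 15.3% of all genes tested. With quantile normalization and limma it was 0 (2 at an unadjusted p under 0.05), against 20.9%. The difference between the lists was not tested.

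**Figure D5:**
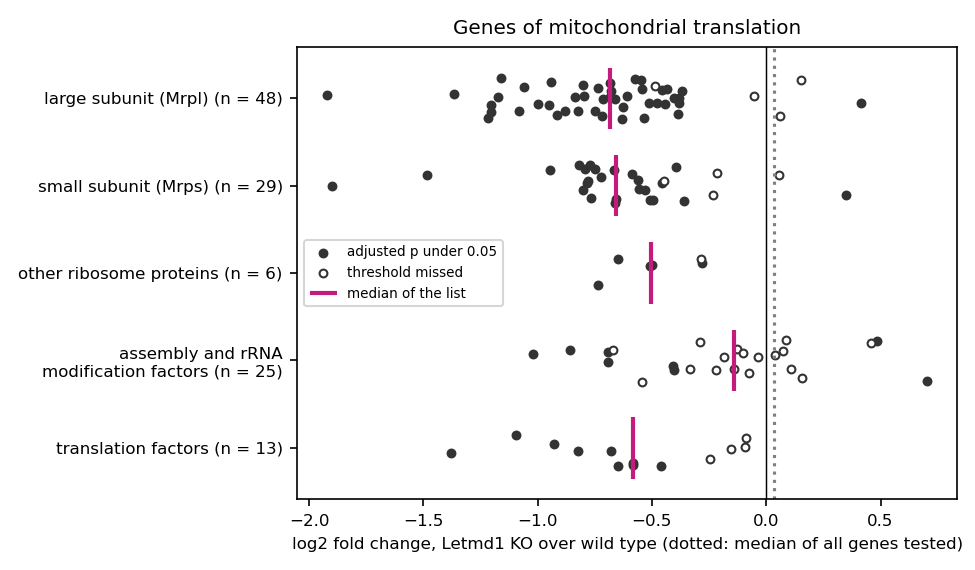
Log2 fold change in Letmd1 KO over WT BAT for each Mrpl and Mrps gene and for 3 lists of other genes of mitochondrial translation (points, filled where the adjusted p was under 0.05, spread vertically only to keep points apart), with the median of each list as a pink line. The medians were -0.68, -0.66, -0.50, -0.14 and -0.59 from top to bottom, and the dotted line is the median of all genes tested. With scaling by library size alone the list of assembly factors has a median of 0.28.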

How the data were processed

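Total RNA of BAT from 3 WT and 3 Letmd1 KO mice was made into QuantSeq 3′ libraries and sequenced. Per the labels and the study's methods, the authors aligned reads with Bowtie2 to mm10 and used bedtools to count alignments per gene, those of reads with several alignments included. The deposited values are whole-number counts per gene and mouse, not normalized. Tool versions, the annotation and the use of strand are not given in the sources used here. Mice were grouped by the genotype label, and n is samples, so p-values measure the spread between these samples. Within a genotype, mice differed by more than sampling noise.

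Testing used edgeR 4.0.16 under R 4.3.3 (TMM factors, default filter with a minimum count of 10 and total of 15, quasi-likelihood test, Benjamini-Hochberg adjustment over 12995 genes, threshold 0.05). The shared shift was tested with summed member counts as library size. The study names quantile normalization, used here as an alternative with limma 3.58.1. The 14 alternative fits of each gene were library size or RLE scaling, DESeq2 1.42.0, limma, no filter, a mean of 50 counts, the replicate block, leaving out each mouse, and leaving out both mice with the most muscle markers (chosen after seeing the data). A floor of 3 counts corresponds to 0.176 to 0.397 CPM and covers counting error only. Same-numbered mice of both genotypes were treated as unpaired. The steps were tested on simulated data. Positions come from GENCODE vM21 (GRCm38), promoters from RefSeq (GRCm38.p6).

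The members and lists were chosen with earlier results of these data known. Genes named are the 8 with the most and the 8 with the least negative change, the 5 most abundant, those higher, up to 5 departures each way, the Mrps18 paralogs, Mrps30, Mrps36, and 2 at each end of a list. Other genes named, such as those of the stalk and exit tunnel, were chosen after values were seen.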

Additional observations from a re-analysis of the deposited data

How the results depend on the processing

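The number of lower genes was 67 with edgeR's RLE scaling, DESeq2 and no filter, against 22.8, 22.4 and 16.4% of all genes tested. It was 66 with the filter at a mean of 50 counts and 59 with quantile normalization and limma, against 23.7% in each. Library size alone gave 32 lower (20 Mrpl, 12 Mrps) and 6 higher genes, against 10.6 and 45.3% of all genes tested. It gave 39 and 6 genes without overlap below and above, for which no share over all genes was computed under this scaling. The medians were -0.24, -0.26 and -0.24 for all, Mrpl and Mrps genes. Signs were opposite under this scaling for Mrpl52 (0.37), Mrps22 (0.21), Mrps18b (0.19), Mrps18c (0.024) and Mrps30 (0.058). Genes higher at the threshold then made up 81.1% of all calls, against 51.5% with TMM. Quantile normalization gave medians of -0.53, -0.57 and -0.48 and turned Mrpl52 to 0.099, and a mean of at least 50 counts gave -0.61 (all) and -0.60 (Mrps). Summed CPM gave -0.81 (all), -0.88 (Mrpl) and a difference between subunits of -0.21, by giving abundant genes more weight.

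Leaving out 1 mouse gave 60 to 66 lower and 0 to 2 higher genes, against 17.7 to 21.4% and 18.8 to 22.4% of all genes tested. It gave 7 to 9 below and 14 to 22 above the sum (14 without KO mouse 1). For departures from the sum, shares over all genes were computed in the main fit only (5.49 and 67.9%). The medians were -0.72 to -0.62 (all), -0.72 to -0.63 (Mrpl) and -0.65 to -0.56 (Mrps). Mrps28 ranged from -0.074 (without WT mouse 1) to 0.14 (without WT mouse 3), with -0.004 without KO mouse 3. Mrpl54 ranged from -0.062 (without KO mouse 1) to 0.15 (without KO mouse 2), with -0.042 without WT mouse 2. Without both mice with the most muscle markers, an alternative chosen after seeing the data, 51 genes were lower and 0 higher, against 14.8 and 15.3% of all genes tested. The medians were then -0.71 (all) and -0.74 (Mrpl), and Mrpl54 was -0.013. No gene was higher (0) at an adjusted p under 0.01 or with a 1.5-fold limit, with 54 and 45 lower, and shares over all genes were not computed for these limits. Among the 66 genes without an overlapping exon at the 3′ end, 1 was higher and 58 were lower, against 23.7 and 22.3% of all genes tested. The geometric mean as library size gave 12 genes above the sum, and TMM values over 1.5-fold from the median, with no test, 4 below and 6 above. The cause of these differences was not tested, except that fewer mice enter the fits that leave mice out.

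Replicate numbers did not pair the mice, since deviations of same-numbered mice correlated at 0.069, -0.111 and -0.087. With the replicate block, 66 genes were lower and 2 higher, against 20.9 and 22.2% of all genes tested. With this block 8 lay below and 21 above the sum, and among the genes named Mrps18c lost its call (adjusted p = 0.066 in edgeR). The 3 mice of a genotype limit the calls of genes at 7.77 to 13.6 CPM in WT, such as Mrpl21 and Mrpl15, whose standard errors were 0.22 and 0.23.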

Other observations

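Some genes of the set share their 3′ end with a neighbour on the opposite strand, where tags of both genes cannot be told apart unless strand was used. The last 500 bases of Mrps7, a small-subunit protein, overlap an exon of Mif4gd. Mif4gd was at 236, 165 and 221 CPM in the WT and at 106, 104 and 106 CPM in the KO mice, beside 116, 107 and 110 CPM and 58.7, 59.1 and 55.2 CPM for Mrps7. The end of Mrpl24, at the exit tunnel, overlaps Rrnad1, which was at 156 ± 4.58 CPM in WT and 122 ± 6.60 CPM in Letmd1 KO BAT (SD, n = 3), beside 141 ± 5.52 and 108 ± 7.44 CPM for Mrpl24. Both genes of each pair were lower in every KO mouse than in every WT mouse. In 3 other pairs the values of the neighbour overlapped between the genotypes. Nr2c2, which overlaps Mrps25, was at 56.0 ± 5.89 CPM in WT and 51.4 ± 2.47 CPM in KO BAT, while Mrps25 went from 129 ± 9.36 to 90.4 ± 2.68 CPM. Syvn1, which overlaps Mrpl49, was at 51.8 ± 9.36 and 51.6 ± 2.15 CPM, while Mrpl49 went from 72.0 ± 1.09 to 55.3 ± 4.29 CPM. Mapk8ip3, which overlaps Mrps34, was at 15.1 ± 4.40 and 11.8 ± 1.76 CPM, while Mrps34 went from 97.9 ± 2.26 to 56.5 ± 4.96 CPM. The neighbour of Mrps34 on its own strand, Nme3, went from 37.6, 38.6 and 45.1 CPM to 18.4, 25.4 and 22.1 CPM. These neighbours were named after their values were seen, and no test is reported for them. In all, 9 genes of the set overlap an exon on the opposite strand and 3 an exon on their own strand. Among them are Mrpl10, Mrpl12 and Mrps18b, with Gm11574, Gm16755 and Gm16279 on the opposite strand. Mrpl51 and Mrpl53 overlap Mir3098 and Gm42688 on their own strand. No values are given here for the neighbours of these 5 genes.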
